A study of Macaca fascicularis with 7 samples.

Results

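The reproductive NLRP genes encode proteins with a nucleotide-binding NACHT domain and leucine-rich repeats, and they were followed here as mRNA in oocytes of the cynomolgus monkey (Macaca fascicularis). A list of 8 genes was used (NLRP2, NLRP4, NLRP5, NLRP7, NLRP9, NLRP11, NLRP13 and NLRP14), and a row was taken where its name in the deposited table equals one of them. This found 7 of the 8 among 28161 usable gene rows. NLRP9 had no row under its symbol, but 1 row named only by a locus identifier carries the gene identifier that a RefSeq gene table of the species gives to NLRP9, and its values are given apart from those of the 7.

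All 7 libraries are labelled wild type. Germinal vesicle (GV) oocytes, held in meiotic prophase, gave 2 libraries, and metaphase II (MII) oocytes matured in the animal (IVO MII) gave 2, both labelled as controls. MII oocytes matured in culture (IVM MII) gave 3 libraries, labelled as treated. Neither the age of the animals nor the number of oocytes behind each library is in the labels, and nothing there says that replicates are different animals. The p-values therefore set a difference between groups against the spread between these libraries, and that spread may be technical.

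NLRP proteins are best known as sensors of the innate immune system, where some of them assemble inflammasomes that activate caspase-1. A separate branch of the family is expressed mainly in the germ line, and its mRNAs are stored in the growing oocyte for use in early cleavage. NLRP5 (also called MATER) is a scaffold of the subcortical maternal complex, an assembly at the oocyte cortex that the early embryo needs, and maternal variants of NLRP2, NLRP5 and NLRP7 are known from imprinting disorders, failed cleavage or hydatidiform mole.

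Library totals ranged from 22901970 to 29245733 counts. Levels are counts per 1000000 counts (CPM), with TMM scaling (the trimmed mean of M values of edgeR), a method that sets the bulk of genes level between libraries. A value after ± is the SD over the libraries of a group (GV n = 2, IVO MII n = 2, IVM MII n = 3). The scaling matters against GV, whose TMM factors of 1.42 and 1.38 stood apart from the MII range of 0.766 to 0.985. With unscaled totals the median log2 fold change over the whole table moved from -0.16 to -0.78 in IVO MII against GV and from -0.10 to -0.80 in IVM MII against GV. Where this turns the direction or the call of a member, the value is given beside it. The labels place the GV files in another folder than all MII files, so this difference and the group cannot be told apart. The name of the MII folder refers to single-cell RNA-seq, and with the number of oocytes not stated, fewer cells and less RNA per cell cannot be told apart either. Of 16 oocyte markers 14 were found, and all 14 had counts in each group, with a summed level of 10180 to 12846 CPM in GV, 6958 to 8563 in IVO MII and 8432 to 18334 in IVM MII. Of the 14, 3 rose and 2 fell from GV to IVO MII, where 14.6% and 13.5% of all genes did. Among them the germ cell RNA-binding genes DAZL and DDX4 rose and the transcription factor FIGLA fell (log2 fold changes 2.25, 1.73 and -3.37). From GV to IVM MII, 4 rose and 2 fell, where 18.5% and 17.8% of all genes did. Among these DAZL, DDX4 and the receptor gene KIT rose and FIGLA fell (1.68, 1.47, 4.58 and -2.23). The zona protein gene ZP2 was higher in IVM than in IVO MII (1.90).

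The 7 genes made up a sizeable part of the oocyte mRNA. They took 0.663% and 0.529% of all counts in the GV libraries, 0.764% and 0.848% in IVO MII, and 0.582%, 0.823% and 0.732% in IVM MII. On this unscaled measure the IVO MII libraries were above both GV libraries, and the IVM MII libraries overlapped with GV. Adding NLRP9 raised the share to 0.699% ± 0.121 for GV, 0.974% ± 0.141 for IVO MII, and 0.818% ± 0.156 for IVM MII. The summed TMM-scaled level of the 7 was 4244 ± 588 CPM for GV oocytes, against 8888 ± 390 for IVO MII and 8306 ± 858 for IVM MII, and here both kinds of MII library lay above GV. NLRP4 was the largest single part of it in each group.

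Divided by exon length, so that genes can be compared, NLRP4 had the highest level in each of the 3 groups. In GV the order of the levels per kb was NLRP4 (394 CPM per kb), NLRP9 (323), NLRP11 (274), NLRP13 (201), NLRP14 (112), NLRP5 (96.7), NLRP2 (85.4) and NLRP7 (34.5). The ranges of NLRP4 and NLRP9, and of NLRP9 and NLRP11, overlapped between the GV libraries, and the other neighbours in this order did not overlap. Within each GV library NLRP4 was above NLRP9, and NLRP9 above NLRP11. In IVO MII, NLRP4 stood at 1811 CPM per kb, above NLRP9 (796), NLRP11 (400) and NLRP13 (245), and a wide gap separated these 4 genes from NLRP2 (50.4), NLRP14 (45.3), NLRP5 (20.3) and NLRP7 (17.3). The ranges of NLRP2 and NLRP14 overlapped there, as did those of NLRP5 and NLRP7, although NLRP5 was above NLRP7 within each IVO MII library. In IVM MII the levels per kb were 1287 for NLRP4, 582 for NLRP11, 530 for NLRP9, 201 for NLRP13, 149 for NLRP2, 68.1 for NLRP7, 62.2 for NLRP14 and 31.9 for NLRP5. Between neighbours in IVM MII, only NLRP4 over NLRP11 and NLRP9 over NLRP13 had separate ranges. Within each IVM MII library, NLRP2 was also above NLRP7, and NLRP14 above NLRP5. The level per kb depends on the annotated exons, which for NLRP9 are 4 blocks on an unplaced scaffold.

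**Figure D1:**
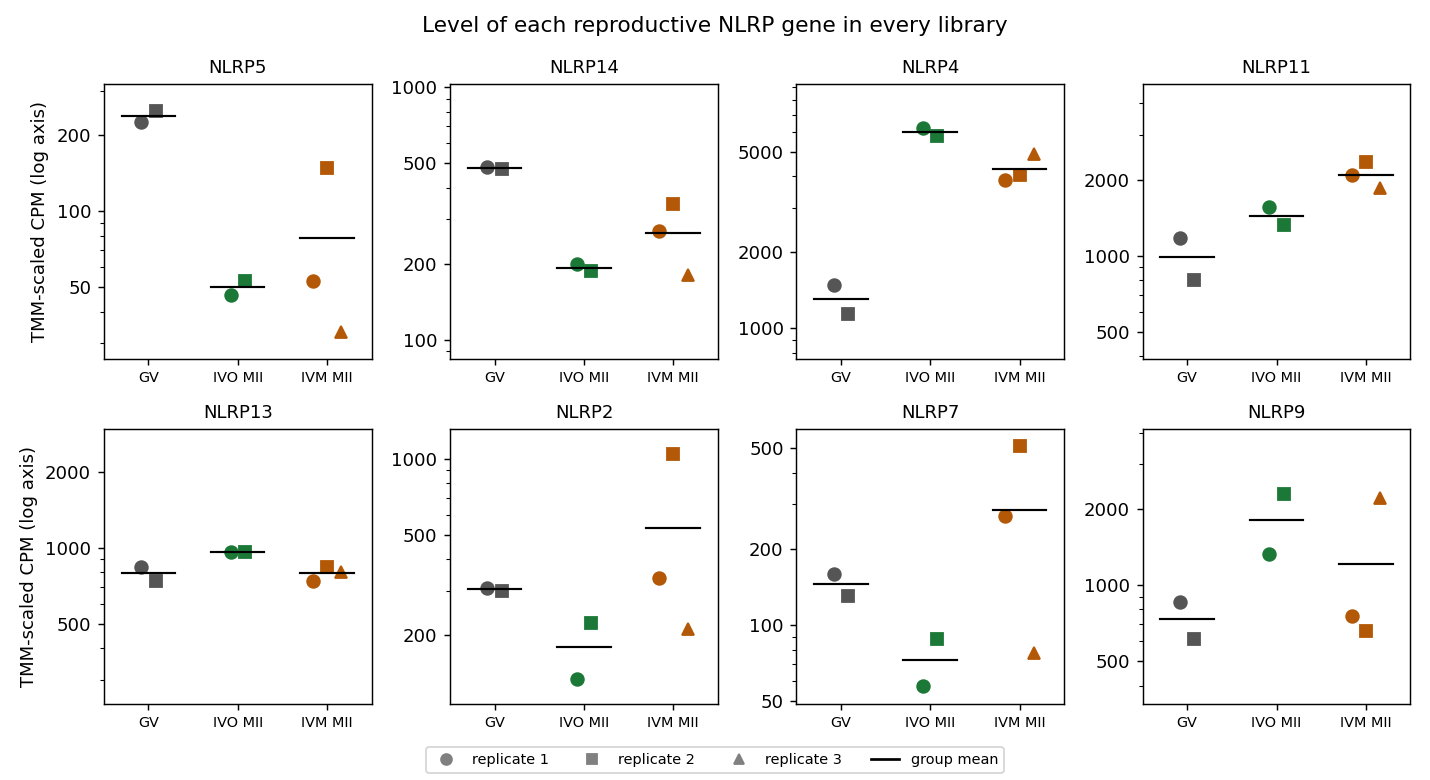
TMM-scaled CPM of each gene (vertical log axis, each panel with its own centre and the same span) in every library, by group (horizontal axis). Points are libraries, with the replicate number as the marker shape, and lines are group means. NLRP4 lies higher in all MII libraries than in GV, NLRP5 and NLRP14 lie lower, and NLRP2 and NLRP7 spread widely within IVM MII.

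Members of the subcortical maternal complex and their relatives come first. NLRP5 (chromosome 19, bases 56847830 to 56881839 of the deposited table, plus strand, 10 exon blocks; the genome build is not given in the sources used here) had 226 and 250 CPM in GV, 46.6 and 53.1 in IVO MII, and 53.0, 149 and 33.4 in IVM MII. All 5 MII libraries were below both GV libraries, and IVM MII replicate 2 was the highest of the 5. NLRP5 fell from GV to IVO MII by 2.25 on the log2 scale (SE 0.64, edgeR adjusted p = 0.0314), a 4.77-fold lower level. In IVM MII against GV its log2 fold change was -1.60 (SE 0.55, edgeR adjusted p = 0.0503). Without IVM MII replicate 2 this became -2.46 (edgeR adjusted p = 0.00809), with unscaled totals -2.30 (0.0186), and it passed the threshold in 9 of 17 fits. Between IVM and IVO MII the libraries overlapped and the log2 fold change was 0.65 (SE 0.57, edgeR adjusted p = 0.545), which turned to -0.21 without IVM MII replicate 2.

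NLRP14 has its highest expression in the germ line of both sexes and is a maternal effect gene in the mouse. It lies apart from the others, on chromosome 14 (bases 60847140 to 60906374, minus strand, 14 exon blocks). It had 481 and 475 CPM in GV, 199 and 187 in IVO MII, and 269, 346 and 181 in IVM MII. As for NLRP5, no MII library reached the level of a GV library. NLRP14 fell from GV to IVO MII by 1.31 on the log2 scale (SE 0.37, edgeR adjusted p = 0.0291). In IVM MII against GV the log2 fold change was -0.85 (SE 0.32, edgeR adjusted p = 0.0687), and between IVM and IVO MII it was 0.46 (SE 0.33, edgeR adjusted p = 0.457). With unscaled totals the value for IVM MII against GV became -1.57 (edgeR adjusted p = 0.00754), and it passed in 5 of 17 fits.

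The calls of NLRP5 and NLRP14 between IVO MII and GV depended on each GV and IVO MII library. Leaving out GV replicate 1, GV replicate 2, IVO MII replicate 1 or IVO MII replicate 2 gave edgeR adjusted p-values of 0.0830, 0.0996, 0.131 and 0.0926 for NLRP5, and 0.132, 0.123, 0.0836 and 0.0811 for NLRP14. The log2 fold changes stayed between -2.36 and -2.17 for NLRP5 and between -1.37 and -1.27 for NLRP14 in these fits. Each such fit rests on a group with 1 library, which is assumed to vary like the other groups.

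The exons of NLRP14 share 148 bases with those of LOC102118240, a row on the opposite strand that has no symbol here. Whether the counting used strand is not given in the sources used here, so reads in the shared stretch cannot be assigned. LOC102118240 had 15.1 and 20.3 CPM in GV, 26.2 and 28.1 in IVO MII, and 139, 160 and 14.5 in IVM MII. It was thus high in the IVM MII libraries 1 and 2 in which NLRP14 was also higher than in replicate 3, and its part in the NLRP14 counts was not tested.

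NLRP2, which associates with the subcortical maternal complex, and NLRP7, a close paralog that the mouse lacks, are neighbours on chromosome 19, at bases 55759049 to 55791165 (plus strand) and 55706551 to 55746279 (minus strand), with 12769 bases between them. NLRP2 had 306 and 300 CPM in GV, 135 and 223 in IVO MII, and 336, 1046 and 212 in IVM MII. NLRP7 had 160 and 130 CPM in GV, 57.4 and 87.7 in IVO MII, and 271, 509 and 77.3 in IVM MII. The pair was lower in both IVO MII libraries than in both GV libraries. In IVM MII replicate 2 was the highest of all 7 libraries for both genes, and replicate 3 was within the range of IVO MII for each.

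In the fit of all libraries, none of the tests of NLRP2 and NLRP7 passed the threshold. Between IVO MII and GV the log2 fold changes were -0.76 (SE 0.67) and -0.996 (SE 0.70). In IVM MII against GV they were 0.81 (SE 0.62) and 0.98 (SE 0.65). The difference between IVM and IVO MII was the widest of any member, at 1.57 for NLRP2 (SE 0.64, edgeR adjusted p = 0.210) and 1.98 for NLRP7 (SE 0.68, edgeR adjusted p = 0.152). Single libraries moved it. Without IVM MII replicate 2 the values were 0.61 and 1.26, and without IVM MII replicate 3 they were 1.94 (edgeR adjusted p = 0.0718) and 2.42 (edgeR adjusted p = 0.0241). In IVM MII against GV, NLRP2 turned to -0.14 without IVM MII replicate 2, and NLRP7 was called at 1.40 without IVM MII replicate 3 (edgeR adjusted p = 0.0305).

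The ratio of NLRP2 to NLRP7 within a library needs no scaling between libraries. Per exon length NLRP2 exceeded NLRP7 by 2.27 to 2.73 times in GV, 2.77 to 3.01 times in IVO MII and 1.47 to 3.24 times in IVM MII. IVM MII replicate 1 had the lowest of these ratios, and replicate 2, where both genes were highest, had 2.43. How reads that match both paralogs were treated is not given in the sources used here, so the split of counts between NLRP2 and NLRP7 is uncertain.

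NLRP4, an oocyte-expressed member studied in somatic cells as a regulator of autophagy and of interferon signalling, moved the other way. It lies on chromosome 19 (bases 56687496 to 56717421, plus strand, 9 exon blocks) and had 1476 and 1135 CPM in GV, 6210 and 5779 in IVO MII, and 3858, 4023 and 4906 in IVM MII. Every MII library was above both GV libraries, and both IVO MII libraries were above all IVM MII libraries. NLRP4 rose from GV to IVO MII by 2.20 on the log2 scale (SE 0.33, edgeR adjusted p = 0.00308), a 4.59-fold higher level, and passed the test in 18 of 18 fits. It rose from GV to IVM MII by 1.71 (SE 0.31, edgeR adjusted p = 0.00398), and this was lost only without GV replicate 2 (edgeR adjusted p = 0.0513). With unscaled totals the rises were 1.57 and 1.00 against medians of all genes of -0.78 and -0.80. Between IVM and IVO MII the log2 fold change was -0.49 (SE 0.29, edgeR adjusted p = 0.356), although the libraries did not overlap.

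NLRP11, a primate gene with no mouse ortholog, is the next gene to NLRP4, on the other strand (bases 56628258 to 56660449, 9 exon blocks). It had 1170 and 797 CPM in GV, 1552 and 1322 in IVO MII, and 2076, 2351 and 1845 in IVM MII. The groups did not overlap in any comparison, and IVM MII was the highest. NLRP11 rose from GV to IVM MII by 1.09 (SE 0.31, edgeR adjusted p = 0.0257). The call was lost with unscaled totals (0.37, edgeR adjusted p = 0.326), with median of ratios scaling (0.95, 0.0522) and without GV replicate 1, GV replicate 2, IVM MII replicate 1 or IVM MII replicate 2 (edgeR adjusted p = 0.0793, 0.240, 0.0596 and 0.0704). Its log2 fold change was 0.55 (SE 0.33, edgeR adjusted p = 0.241) in IVO MII against GV, which turned to -0.092 with unscaled totals, and 0.54 (SE 0.30, edgeR adjusted p = 0.340) in IVM MII against IVO MII.

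NLRP13, for which little is known beyond its expression in oocytes, had no called difference in any of the 3 comparisons (bases 56723427 to 56767592 of chromosome 19, minus strand, 14 exon blocks). Its levels were 840 and 740 CPM in GV, 964 and 961 in IVO MII, and 739, 839 and 798 in IVM MII. IVO MII was above the other groups by a small step, and GV and IVM MII overlapped. The log2 fold changes were 0.28 (SE 0.29) in IVO MII against GV, 0.00 (SE 0.26) in IVM MII against GV and -0.28 (SE 0.26) between IVM and IVO MII. With unscaled totals the first 2 became -0.34 and -0.71, where the medians of all genes were -0.78 and -0.80.

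NLRP9, read from the row matched by identifier, had 857 and 613 CPM in GV, 1326 and 2295 in IVO MII, and 754, 656 and 2206 in IVM MII. The IVO MII libraries were above GV, while in IVM MII 2 libraries were at the level of GV and replicate 3 was at that of IVO MII. Its log2 fold changes of 1.30 in IVO MII against GV (SE 0.60, edgeR adjusted p = 0.137), 0.71 in IVM MII against GV (SE 0.55, edgeR adjusted p = 0.340) and -0.59 between IVM and IVO MII (SE 0.54, edgeR adjusted p = 0.563) were not called. Without IVM MII replicate 3 the last value was -1.38 (edgeR adjusted p = 0.0603), the value for IVM MII against GV turned to -0.10, and the value for IVO MII against GV was called at 1.28 (SE 0.36, edgeR adjusted p = 0.0323).

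**Figure D2:**
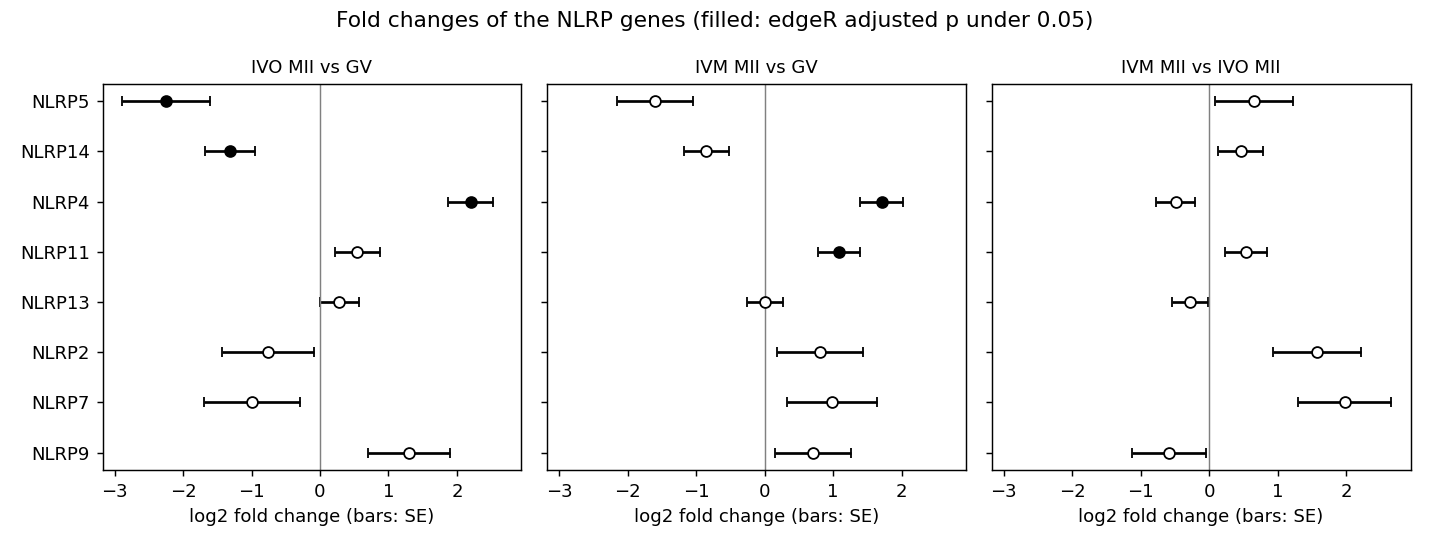
Log2 fold change (horizontal axis, bars are SEs) of each gene in the 3 comparisons, from 1 edgeR fit of all 7 libraries. Filled points passed the adjusted threshold: NLRP4 up and NLRP5 and NLRP14 down in IVO MII against GV, NLRP4 and NLRP11 up in IVM MII against GV, and none between IVM and IVO MII. The first and second panels share the GV libraries.

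Counted over the 7 members with a row of their own symbol, 1 rose and 2 fell between GV and IVO MII. Over all 16374 tested genes 14.6% rose and 13.5% fell (2392 and 2204 genes, or 1340 and 3123 with unscaled totals), and the median log2 fold change was -0.76 for the members and -0.16 for all genes. All 7 members had no overlap between IVO MII and GV libraries, against 72.8% of all genes. Between GV and IVM MII 2 rose and 0 fell, where 18.5% of all genes rose and 17.8% fell (3037 and 2912 genes, or 1608 and 4170 with unscaled totals). The medians there were 0.81 for the members and -0.10 for all genes, and 4 of 7 members did not overlap, against 69.1% of all genes. DESeq2 called 2 members lower in IVM MII than in GV, where it called 3737 genes lower over the whole table. At an unadjusted edgeR p under 0.05 there were 4 members, and the share of all genes at that level was not counted for IVM MII against GV. The 2 comparisons share the GV libraries.

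Between IVM and IVO MII 0 of 7 members passed the edgeR test, where 1.47% of all genes did. That background is 241 genes, and it was 0 without IVM MII replicate 1 or 2, 1277 without IVM MII replicate 3 and 2010 with DESeq2. At an unadjusted edgeR p under 0.05 there were 2, NLRP2 and NLRP7, against 21.1% of all genes. DESeq2 called 1 (NLRP7, 1.97, DESeq2 adjusted p = 0.0304) and limma voom called 0. The libraries did not overlap for 3 members (NLRP4 and NLRP13 lower, NLRP11 higher in IVM MII), against 33.8% of all genes. With SEs of 0.26 to 0.68 on the log2 scale, these values do not show that the members were alike in the 2 kinds of MII oocyte.

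The make-up of the family, as each member's share of the summed counts per exon length of the 7, can be compared without scaling between libraries. NLRP4 took 33.9% and 31.7% in GV, 70.2% and 69.6% in IVO MII, and 46.0% to 63.5% in IVM MII. NLRP11 took 22.7% ± 3.01 in GV, less in IVO MII (15.4% ± 1.06), and 24.5% ± 2.29 in IVM MII. Among these 7, with NLRP9 left out, NLRP4 thus outweighed all others together in IVO MII. Its shares did not overlap between any of the 3 groups. With NLRP9 (1009 CPM per kb) added, the others together exceeded NLRP4 (1746) in IVO MII replicate 2.

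The other shares were smaller in IVO MII than in GV for every member. NLRP13 went from 16.8% ± 0.808 in GV to 9.46% ± 0.400 in IVO MII and 8.48% ± 0.340 in IVM MII. NLRP14 went from 9.46% ± 1.21 to 1.75% ± 0.00342 and 2.60% ± 0.681, and NLRP5 from 8.19% ± 1.70 to 0.786% ± 0.107 and 1.29% ± 0.891. A rise of NLRP4 lowers the share of every other member, so a smaller share is not by itself a lower level. For GV, IVO MII and IVM MII in turn, NLRP2 held 7.19% ± 0.886, 1.96% ± 0.771 and 6.02% ± 4.53, and NLRP7 2.88% ± 0.0218, 0.672% ± 0.227 and 2.78% ± 1.91.

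In IVO MII against GV the shares of all 7 members did not overlap between the groups, each at an exact permutation p of 0.333 (two-sided), the smallest this design allows. In the other 2 comparisons the smallest possible p is 0.1, which was reached by NLRP4, NLRP5, NLRP13 and NLRP14 for IVM MII against GV and by NLRP11 and NLRP13 for IVM MII against IVO MII. These are 21 comparisons of shares in all, and none could reach the threshold at these group sizes. The ratio of NLRP4 to NLRP5 per exon length sets the member that rose against one that fell. It was 4.86 and 3.37 in GV, 99.0 and 80.8 in IVO MII, and 54.0, 20.1 and 109 in IVM MII.

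**Figure D3:**
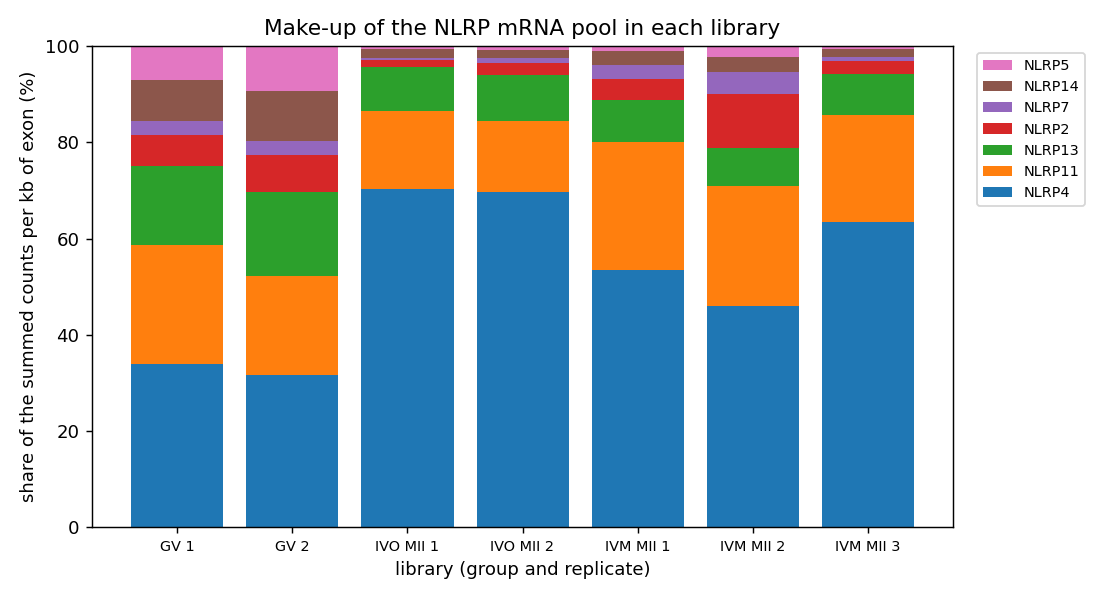
Share of each of the 7 members in their summed counts per kb of exon (vertical axis, percent) in each library (horizontal axis). Each bar adds up to the whole of the 7. NLRP4 takes 31.7% to 33.9% in GV, 46.0% to 63.5% in IVM MII and 69.6% to 70.2% in IVO MII.

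The genes of the chromosome 19 cluster did not all move one way. NLRP11, NLRP4, NLRP13, NLRP8 and NLRP5 follow one another on chromosome 19 with 27046, 6005, 17777 and 30076 bases between them, and NLRP4 rose while NLRP5 fell between GV and IVO MII within this cluster. The adjacent NLRP11 and NLRP4 both rose from GV to IVM MII. NLRP7 and NLRP2 lie 837092 bases before it. NLRP8, a further oocyte gene of the cluster that is no member of the list, had 396 and 304 CPM in GV, 318 and 647 in IVO MII, and 74.2, 64.5 and 338 in IVM MII. It was not called in any comparison (edgeR adjusted p = 0.679, 0.220 and 0.224 for IVO MII against GV, IVM MII against GV and IVM MII against IVO MII), and IVM MII replicate 3 was at the IVO MII level while replicates 1 and 2 were lower.

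**Figure D4:**
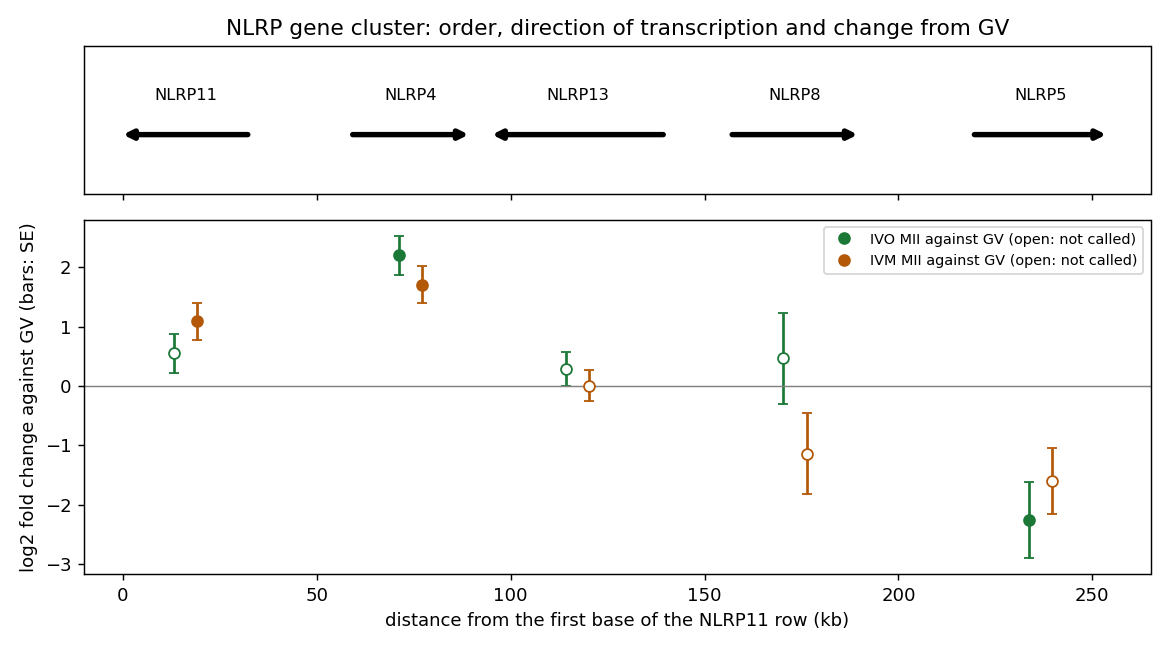
Upper panel: the 5 neighbouring NLRP rows of chromosome 19, drawn to scale as distance from the first base of the NLRP11 row (kb), with arrows in the direction of transcription. Lower panel: log2 fold change against GV (bars are SEs) at the middle of each gene, green for IVO MII and orange for IVM MII, open where not called. NLRP4 is up and NLRP5 is down in IVO MII within the same cluster.

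The partners of the NLRP proteins were followed in lists. Among 5 partners of the subcortical maternal complex, 0 rose and 2 fell in IVO MII against GV, where 13.5% of all genes fell (median log2 fold change 0.17, against -0.16 for all genes). Against GV, 0 rose and 3 fell in IVM MII, where 17.8% of all genes fell (median -1.45, against -0.10). Between the MII groups 0 rose and 1 fell in IVM, where 1.47% of all genes were called in either direction (median 0.44, against 0). TLE6, which binds NLRP5 in the complex, fell from 283 CPM in GV to 25.8 in IVO MII (log2 fold change -3.45, edgeR adjusted p = 0.00515), and PADI6, an enzyme-like protein of the oocyte lattices, fell from 526 to 105 CPM (-2.33, edgeR adjusted p = 0.0310). The PADI6 call was lost without GV replicate 1, GV replicate 2 or IVO MII replicate 1 (edgeR adjusted p = 0.126, 0.0568 and 0.113). In IVM MII against GV, TLE6 fell to 87.7 CPM (-1.69, edgeR adjusted p = 0.0303) and PADI6 to 143 CPM (-1.88, edgeR adjusted p = 0.0322). Both calls were lost without GV replicate 1, GV replicate 2 or IVM MII replicate 1, and also without IVM MII replicate 3 for TLE6 and IVM MII replicate 2 for PADI6, with edgeR adjusted p-values from 0.0593 to 0.169. OOEP, a KH-domain protein of the complex, had mean levels of 2208 CPM (GV), 2489 CPM (IVO MII) and 811 CPM (IVM MII). It fell by 1.62 in IVM MII against IVO MII (edgeR adjusted p = 0.0438) and by 1.45 against GV (edgeR adjusted p = 0.00755). Between IVM and IVO MII the OOEP call was lost without GV replicate 1, GV replicate 2, IVM MII replicate 1, IVM MII replicate 2 or IVO MII replicate 2 (edgeR adjusted p = 0.0751, 0.0779, 0.102, 0.151 and 0.113), and against GV without GV replicate 2 (0.0598).

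The immune branch of the family had low counts. The list of 14 other NLR genes also holds the oocyte gene NLRP8, which was not low (mean 306 CPM over the 7 libraries). Of the 14, 7 passed the filter on low counts, NLRP8 among them, and 0 of them were called in any of the 3 comparisons. Of all genes 14.6% rose and 13.5% fell in IVO MII against GV, and 18.5% and 17.8% in IVM MII against GV. Between the MII groups 1.47% were called. With so few genes, mostly at low counts, 0 calls do not show that their levels were unchanged. After NLRP8 the highest were NAIP, a sensor of bacterial flagellin, and NLRC3, with means of 2.94 and 2.08 CPM over the 7 libraries. NLRP3, the best studied inflammasome sensor, had 62 and 57 counts in GV, 9 and 1 in IVO MII, and 3, 37 and 40 in IVM MII.

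Several inflammasome parts had no counts. The adaptor PYCARD, the protease CASP1 and the cytokine IL1B had 0 counts in all 7 libraries, which allows up to 0.0907 to 0.161 CPM in a library, taking 3 counts as the limit and counting error only. Of 14 found genes of this list 5 were tested, and 1 rose in IVO MII and 2 in IVM MII against GV, where 14.6% and 18.5% of all genes rose, with 0 called between IVM and IVO MII. NEK7, a kinase that works in mitosis and also binds NLRP3, rose from a GV mean of 5.11 CPM to 87.9 in IVO MII (4.10, edgeR adjusted p = 0.00210) and 120 in IVM MII (4.56, edgeR adjusted p = 0.00117). TXNIP, a thioredoxin-binding protein, had 0 counts in GV, 0 and 35 in IVO MII, and 485, 64 and 741 in IVM MII, and was called higher in IVM MII than in GV (edgeR adjusted p = 0.0101).

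Markers of other cell types were followed too. The 16 cumulus and granulosa markers found summed to 18.7 to 20.4 CPM in GV, 64.5 to 111 in IVO MII and 98.9 to 219 in IVM MII, with AMH and PTX3 at 0 in all libraries. Of 7 tested, 2 rose in IVO MII against GV, where 14.6% of all genes rose. These were the hyaluronan synthase HAS2 (from 6.06 to 39.0 CPM) and the matrix proteoglycan VCAN (from 0.278 to 4.68 CPM). From GV to IVM MII 2 rose and 1 fell, where 18.5% of all genes rose and 17.8% fell. The FSH receptor FSHR (from 1.63 to 35.2 CPM) and the hyaluronan-binding TNFAIP6 (from 10.5 to 107 CPM) rose. The aromatase CYP19A1 fell from 0.352 CPM to 0 counts. The 16 blood and immune markers found summed to 26.1 to 34.5 CPM in GV, 3.28 to 4.13 in IVO MII and 0.322 to 5.30 in IVM MII, and CD14, LYZ, CD3D and ITGAM were at 0 in all libraries. The GV sums were nearly all CSF1R, a macrophage receptor gene, with 32.9 and 24.8 CPM, and it fell to means of 1.41 CPM (IVO MII) and 1.74 CPM (IVM MII) (edgeR adjusted p = 0.0279 and 0.0148). TYROBP, an adaptor of myeloid cells, also fell in IVM MII, from 0.848 CPM to 0 counts (edgeR adjusted p = 0.0314). Of 4 blood and immune markers tested, 1 fell in IVO MII and 2 in IVM MII against GV. Of all genes 13.5% and 17.8% fell there. Of the called markers named here and among the oocyte markers, FIGLA, FSHR and TNFAIP6 kept their edgeR calls without each library in turn, and the others lost theirs without at least 1 library. Both sums did not overlap between GV and MII, as for NLRP4, NLRP5, NLRP11 and NLRP14. Of all genes, 72.8% did not overlap between IVO MII and GV, and 69.1% between IVM MII and GV. The part of such cells in the NLRP values was not tested.

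Genes whose level over the 7 libraries was most like that of a member were taken from 6441 genes with a symbol and a mean of at least 10 CPM, by Pearson correlation of log2(CPM + 1). The points are the same 7 libraries in 3 groups, so the likeness follows the steps between groups and the single libraries described above, and it is given as a description. NLRP4 was most like LDLRAD3 (0.998), SALL3 (0.998) and ERRFI1 (0.997). NLRP5 and NLRP14 had the same nearest gene, VTI1B (0.981 and 0.994), a vesicle fusion gene, followed by NCBP2 and PSMC1 for NLRP5 and by BOLA2B and WDR66 for NLRP14. NLRP2 and NLRP7 shared PTBP2, a splicing regulator (0.947 and 0.982), and NLRP7 itself was among the 3 genes nearest to NLRP2 (0.945). The nearest genes were VPS4B for NLRP11 (0.981) and SPRY4 for NLRP13 (0.988).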

How the data were processed

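The authors deposited raw counts per gene with exon coordinates and exon length. The submitters' processing notes name featureCounts 2.0.1, SAMtools 1.15.1, Bowtie2 2.4.5, Trim Galore 0.6.7 and also DESeq2. Genome build, strand setting and the handling of multiply matching reads: not given in the sources used here. As an aligner, Bowtie2 does not split reads over introns, so reads across exon junctions can be lost. Per the labels' protocols, cDNA was primed on poly(A), so a change in tail length can change a count. Broken lines of 3 genes (10 lines) were left out.

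All 7 libraries entered 1 edgeR 4.0.16 quasi-likelihood fit (TMM, filterByExpr, two-sided) in R 4.3.3. A gene was called at a Benjamini-Hochberg adjusted p under 0.05 over all 16374 tested genes. SEs are the size of the log2 fold change divided by the root of the F statistic. The spread of a gene was estimated over the 3 groups together, so an SE between IVO MII and GV also holds the spread within IVM MII. With only the groups compared, the SE between IVO MII and GV was 0.35 instead of 0.67 for NLRP2 and 0.30 instead of 0.64 for NLRP5. For NLRP4 it was 0.31 instead of 0.33. On simulated counts with 200 genes changed 8-fold, the test recovered 98.5% of them in IVM MII against IVO MII (15722 genes), 95.5% in IVO MII against GV (15655 genes) and 93.5% in IVM MII against GV (15650 genes). False calls were 3.90%, 6.83% and 2.09% of those made, against a nominal 5%. The largest change of a member in the fit of all libraries was 4.77-fold (NLRP5, IVO MII against GV). Recovery of changes smaller than 8-fold was not tested. Recovery and false calls for rows that vary as widely as NLRP7 (SE 0.70 in IVO MII against GV) were not tested either. Alternatives used DESeq2 1.42.0 and limma 3.58.1. Summaries used pandas 2.3.3 under Python 3.11.15. The members and lists were chosen with earlier results of these data known. All members are named, with the 3 genes most like each member, of which some are not reported here. Each other list gives, per comparison, up to 3 called genes by smallest p or, where none was called in any, up to 3 with the highest mean. Genes at 0, NLRP3, DAZL in IVM MII against GV and the row overlapping NLRP14 were added after their values were seen.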

Additional observations from a re-analysis of the deposited data

How the results depend on the processing

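The lowest count of a member found by symbol was 887, far above the limit of 3 counts. Members called lower between IVO MII and GV numbered 2, and 0 to 2 without single libraries, while 1 was higher in each fit. For IVM MII against GV, 2 were called higher, 1 with median of ratios scaling and 1 with unscaled library totals (3037, 2677 and 1608 over all genes). Without IVM MII replicate 1, 2 or 3 there were 1, 1 and 3 (2185, 2430 and 3136 over all genes). The 0 called lower there became 2 with DESeq2, 2 with limma voom, 2 with unscaled totals and 2 with upper quartile scaling. Over all genes the 2912 called lower became 3737, 4152, 4170 and 3093 in these settings. For the members it was 1 with median of ratios scaling, 1 with no filter and 1 with edgeR's newer fit, added after the data were seen (3247, 2940 and 4151 over all genes). Without IVM MII replicate 1, 2 or 3 it was 0, 1 and 0 (2054, 2211 and 3192 over all genes). Between IVM and IVO MII the 0 called higher became 1 with DESeq2 and 0 to 1 without single libraries. Over all genes the 241 calls of that comparison became 774 with edgeR's newer fit, 731 with no filter, 497 with limma voom, 54 with only the groups compared, 1238 with the replicate block and 96, 64, 364 and 22 without GV replicate 1, GV replicate 2, IVO MII replicate 1 and IVO MII replicate 2. The 4596 calls of IVO MII against GV became 1484, 1700 and 3011 without GV replicate 1, GV replicate 2 and IVO MII replicate 1, and the 5949 of IVM MII against GV became 2110 and 2550 without GV replicate 1 and 2.

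The replicate numbers in the titles do not pair the samples by the rule used here: deviations of same-numbered libraries correlated at -0.13 between GV and IVO MII, and between -0.07 and 0.19 in the other pairs. With the replicate number as a block, 2 members were called higher between IVM and IVO MII (NLRP2 and NLRP7), and 3 higher and 1 lower in IVM MII against GV. Over all genes that block called 782 higher between IVM and IVO MII, and 2984 higher and 2834 lower in IVM MII against GV. With crossed pairing of the IVO MII numbers, chosen after seeing the data, 1 was higher and 2 were lower in IVO MII against GV (2607 and 2431 over all genes). NLRP9, kept apart from these counts, was called in that comparison with either block (1.29, edgeR adjusted p = 0.0421, and 1.27, 0.0219, when crossed, against 0.137). The numbers in the file names differ from the titles in 1 case, IVO MII replicate 2, whose file has number 3. By file number, IVO and IVM MII libraries correlated at 0.19 and 0.24, and with that number as the replicate block, added after the data were seen, 0 members and 832 genes were called between IVM and IVO MII, and NLRP5 turned to -0.044.

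Some values changed sign. NLRP13 in IVM MII against GV went from 0.00 to -0.13 with DESeq2, -0.13 with median of ratios scaling, -0.023 with no filter, -0.020 with only the groups compared, -0.0015 with the replicate block, -0.71 with unscaled totals, -0.11 with upper quartile scaling, and between -0.10 and 0.082 without single libraries. In IVO MII against GV, unscaled totals gave -0.092 for NLRP11 and -0.34 for NLRP13. Without single libraries, NLRP2 in IVM MII against GV lay between -0.14 (without IVM MII replicate 2) and 1.16, and NLRP5 in IVM MII against IVO MII between -0.21 (without IVM MII replicate 2) and 1.01. NLRP9 in IVM MII against GV was -0.062 with the replicate block and between -0.097 (without IVM MII replicate 3) and 1.01 without single libraries. Shares in IVM MII minus GV, in percentage points, were between -0.318 and 3.94 for NLRP11, -3.74 and 0.561 for NLRP2, and -0.997 and 0.904 for NLRP7 without single libraries, and 0.156 for NLRP7 with NLRP9 in the sum (chosen after seeing the data). The causes were not tested.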

Other observations

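The third IVM MII library lay nearer to the mean of the IVO MII libraries than to that of the other IVM MII libraries for NLRP2, NLRP5, NLRP7, NLRP8, NLRP9, NLRP14 and the row overlapping NLRP14. NLRP9 had 2206 CPM there against 754 and 656 in IVM MII replicates 1 and 2, and 1326 and 2295 in IVO MII. NLRP8 had 338 CPM against 74.2 and 64.5, with 318 and 647 in IVO MII. NLRP7 had 77.3 CPM against 271 and 509, with 57.4 and 87.7 in IVO MII, and LOC102118240 had 14.5 against 139 and 160, with 26.2 and 28.1. NLRP2 had 212 CPM against 336 and 1046, with 135 and 223 in IVO MII, and NLRP14 had 181 against 269 and 346, with 199 and 187. For NLRP11 this did not hold: its 1845 CPM in that library was above 1552 and 1322 in IVO MII. Nor did it for NLRP13, whose 798 CPM lay between 739 and 839 in IVM MII replicates 1 and 2 and below 964 and 961 in IVO MII. NLRP4 lay between the groups, with 4906 CPM against 3858 and 4023 in those replicates and 6210 and 5779 in IVO MII. NLRP5, one of the rows for which it did hold, had its lowest level in that library. This was 33.4 CPM, against 53.0 and 149 in those replicates and 46.6 and 53.1 in IVO MII. These rows were picked after their values were seen, and they are given as values with no test.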
